A study of Mus musculus with 4 samples.

Results

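Fc receptors bind the constant part of antibodies and pass the signal into the cell through small adaptor proteins. The 9 genes described here, chosen by name among the 38355 genes of the count table, cover this system in the mouse heart. They are the IgG receptor genes Fcgr1, Fcgr2b, Fcgr3 and Fcgr4, the neonatal Fc receptor gene Fcgrt, the adaptor genes Fcer1g and Tyrobp, the adaptor-coupled receptor gene Trem2 and the kinase gene Syk. All 9 were in the table and all 9 were among the 14189 genes with enough counts to test. Fcgr4 had at least 10 counts in 2 of the 4 libraries, WT 1 and TG 2.

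Left ventricular free wall of 4 mice that had received no treatment gave the RNA, 1 library per mouse, in a study that asked whether the transgene VSFP2.3 harms the heart. VSFP2.3 is a fluorescent protein that reports membrane voltage, directed to heart muscle cells per the series title. The transgenic mice (TG) carried it and the wild-type mice (WT) did not. WT 1 and TG 1 were males of 35 weeks, WT 2 and TG 2 were females of 19 weeks, and the parents were the same for all 4. Sex and age therefore cannot be told apart. The sources used here do not give the promoter that drives the transgene, the number of transgenic lines or the strain. The transgene's own transcripts were not analysed, so no targeted gene checked the genotype labels. A TG and a WT mouse of one sex and age are called a pair below.

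In leukocytes, the activating receptors encoded by Fcgr1, Fcgr3 and Fcgr4 signal through the common γ chain, the product of Fcer1g. The γ chain and DAP12, the product of Tyrobp, each carry an immunoreceptor tyrosine-based activation motif (ITAM), whose phosphorylated tyrosines recruit the kinase SYK. The receptor encoded by Fcgr2b carries an inhibitory motif (ITIM) that recruits phosphatases and opposes this signal. The product of Fcgrt, FcRn, belongs to another structural family, pairs with β2-microglobulin and protects IgG from degradation inside cells, with endothelium and macrophages among its known sites. In the heart, resident macrophages are a known site of the activating receptors and of both adaptors.

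The coding sequences of the signalling motifs are shown because they are what separates the adaptors and the inhibitory receptor from the other members. They were read from GENCODE vM21 transcripts (mm10), 5′ to 3′ on the coding strand. The Tyrobp motif spans chr7:30415670-30417382 on the plus strand across exons 4 and 5 of 5, with an intron between, and covers codons 92 to 106 of 114. The Fcer1g motif spans chr1:171229889-171230072 on the minus strand, again across exons 4 and 5 of 5, and covers codons 65 to 79 of 86. The Fcgr2b inhibitory motif lies in exon 8 of 8 at chr1:170961071-170961088 on the minus strand, codons 317 to 322 of 340. Capitals mark the codons of the motif tyrosines and, in the adaptors, of the leucines that lie 3 codons after each.
Tyrobp: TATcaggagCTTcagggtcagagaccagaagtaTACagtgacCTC
Fcer1g: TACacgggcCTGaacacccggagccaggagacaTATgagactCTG
Fcgr2b: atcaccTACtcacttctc

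A search for tyrosine, 2 codons of any kind and leucine or isoleucine, repeated after 6 to 12 codons, found the ITAM in 2 of the 9 members, Tyrobp and Fcer1g. The shorter inhibitory pattern also matched letters in Fcgr1, Fcgr4, Fcgrt, Fcer1g and Tyrobp, so a match to it is a description of the sequence only.

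Upstream sequence is shown for the 4 members whose printed stretch holds the core GAGGAA, a short element that the myeloid transcription factor PU.1 is known to bind, here read on the opposite strand as TTCCTC. Each line gives the 100 bases before the RefSeq transcript start (GRCm38.p6), 5′ to 3′ in the direction of transcription, with the core in capitals. For Fcgr3 and Fcgr4 this start lies inside the gene as GENCODE draws it. The whole Fcgr3 stretch and the last bases of the Fcgr4 stretch therefore lie within those genes. The Fcgr1 stretch is chr3:96293970-96294069 on the minus strand and that of Fcgr3 is chr1:171059404-171059503 on the minus strand. The Fcgr4 stretch is chr1:171018826-171018925 on the plus strand and that of Trem2 is chr17:48346301-48346400 on the plus strand.
Fcgr1: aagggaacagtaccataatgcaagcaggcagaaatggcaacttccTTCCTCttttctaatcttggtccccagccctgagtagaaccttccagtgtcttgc
Fcgr3: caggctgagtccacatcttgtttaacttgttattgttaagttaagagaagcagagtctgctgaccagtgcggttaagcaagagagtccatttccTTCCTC
Fcgr4: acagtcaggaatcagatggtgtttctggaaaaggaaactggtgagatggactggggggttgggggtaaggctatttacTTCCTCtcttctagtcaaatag
Trem2: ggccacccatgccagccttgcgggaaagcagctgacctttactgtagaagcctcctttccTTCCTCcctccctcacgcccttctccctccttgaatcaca

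The core began 55 bases before the start in Fcgr1, 6 in Fcgr3, 22 in Fcgr4 and 40 in Trem2. In windows from 250 bases before to 50 bases after the start, searched on both strands, 5 of the 8 members with an entry held it, the fifth being Syk at its second listed start. At the first listed start of each gene, 4 of the 8 members held it, beside 28.3% of 27025 genes. Fcer1g, Fcgr2b and Fcgrt had no match to these letters. A match of 6 letters is common and is not a binding site by itself.

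The libraries held 14158440 to 16762713 counts and 18334 to 19001 genes with at least 1 count. Levels are given as CPM (counts scaled to a library of equal size) after TMM scaling, and a count of 0 allows up to 3 counts, or 0.182 to 0.213 CPM. These limits, like the counting intervals below, cover counting error only. WT 2 stood apart from the other libraries. Its non-coding gene Yam1 held 685444 counts against 2094 to 7376 elsewhere, Lars2 held 137304 against 314 to 780, and the atrial light chain gene Myl4 was at 75.6 CPM against 0.711 to 1.16. The members are given by library below, and fitted values without WT 2 follow each comparison. Markers of the labelled tissue were plentiful, since 10 cardiomyocyte genes summed to 135295 to 208915 CPM.

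Fcgr1 encodes the high-affinity IgG receptor and lies at chr3:96282909-96293969. It was counted 144 times in WT 1, 22 times in WT 2, 19 times in TG 1 and 63 times in TG 2, or 8.76, 1.41, 1.35 and 4.18 CPM. WT 1 was the highest library and TG 2 the next, so the genotypes overlapped and so did the sexes. In bulk tissue, fewer cells of a type and less RNA per cell cannot be told apart, here or for any gene below.

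Fcgr3 (chr1:171051174-171064935) encodes a low-affinity activating receptor that binds immune complexes. Its levels were 18.2 CPM in WT 1, 7.04 in WT 2, 5.97 in TG 1 and 14.4 in TG 2, from 300, 110, 84 and 217 counts. The order of libraries was the same as for Fcgr1, over a narrower range.

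Fcgr4 (chr1:171018920-171029761), the third activating receptor gene, had the widest range of the 9. It was counted 87 times in WT 1 and 44 times in TG 2, or 5.29 and 2.92 CPM, but once in WT 2 and 2 times in TG 1, or 0.0640 and 0.142 CPM. Both of the latter are below the level that a count of 0 allows.

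Fcgr2b (chr1:170958617-170976547), which encodes the inhibitory receptor, was at 8.33 CPM in WT 1, 4.09 in WT 2, 4.13 in TG 1 and 8.43 in TG 2, from 137, 64, 58 and 127 counts. The high libraries were again WT 1 and TG 2, here nearly equal. Fcgr2b and Fcgr3 share sequence, and 10.7% of the 50-base windows of Fcgr2b transcripts and 10.2% of those of Fcgr3 occur in another gene. Fcgr2b also overlaps the antisense gene Gm38204 over 155 bases, or 2.68% of its exonic length, and whether the counting used strand was not given. The counts of both receptors are uncertain to that extent, while the other 7 members had no shared window.

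Fcer1g (chr1:171229572-171234365), the γ-chain gene, was at 11.5 CPM in WT 1, 3.84 in WT 2, 4.27 in TG 1 and 9.56 in TG 2, from 189, 60, 60 and 144 counts. Tyrobp (chr7:30413760-30417585), the DAP12 gene, was at 20.4, 6.08, 6.76 and 15.7 CPM in the same order of libraries, from 335, 95, 95 and 237 counts. Both adaptors were high in WT 1 and TG 2 and low in WT 2 and TG 1. Fcgr2b, Fcgr4 and both adaptors had TG 1 slightly above WT 2, and Fcgr1 and Fcgr3 had WT 2 slightly above TG 1.

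Fcgrt (chr7:45092990-45103851) hardly varied, at 76.4 CPM in WT 1, 72.7 in WT 2, 71.6 in TG 1 and 82.3 in TG 2, from 1257, 1137, 1006 and 1239 counts. Syk (chr13:52583173-52648792) was at 49.1, 46.1, 39.3 and 60.4 CPM, from 807, 720, 552 and 909 counts. TG 2 was the highest and TG 1 the lowest library for both genes.

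Trem2 (chr17:48346401-48354147) encodes a lipid-sensing receptor of macrophages and microglia that signals through DAP12. Its 41, 30, 17 and 19 counts gave 2.49 CPM in WT 1, 1.92 in WT 2, 1.21 in TG 1 and 1.26 in TG 2. Trem2 differed from its own adaptor in the order of libraries, with both WT mice above both TG mice.

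**Figure D1:**
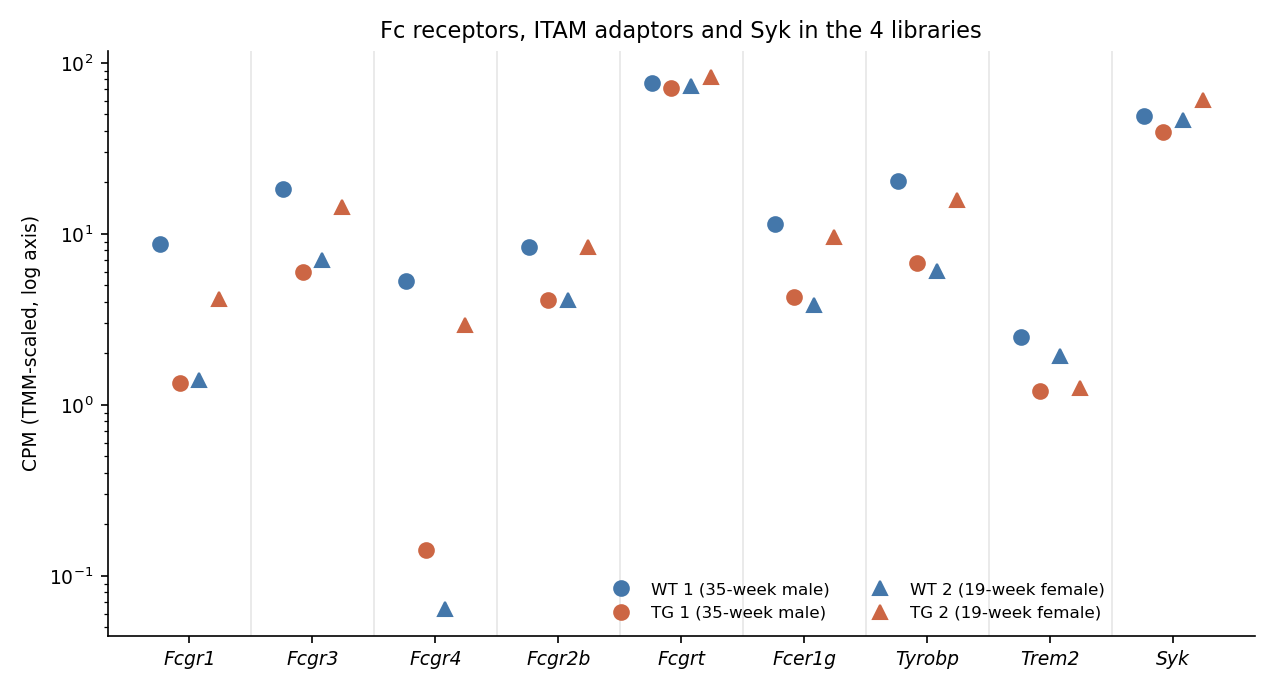
Level of each of the 9 genes (CPM after TMM scaling, log axis) in the 4 libraries, with circles for the 35-week males, triangles for the 19-week females, blue for WT and orange for TG. Fcgr1, Fcgr3, Fcgr4, Fcgr2b, Fcer1g and Tyrobp were high in WT 1 and TG 2, Fcgrt and Syk lay in a narrow band, and Trem2 was higher in both WT mice than in both TG mice.

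Levels of different genes are compared per kilobase of exonic length. Fcgrt was the highest member in every library, at 36.0 ± 2.29 CPM per kilobase (SD, n = 4 libraries), and Tyrobp was the next in every library, at 18.3 ± 10.5. Below them came Fcer1g at 8.34 ± 4.38, Fcgr3 at 6.58 ± 3.40 and Syk at 5.20 ± 0.940. The lowest were Fcgr4 at 1.68 ± 1.99, Fcgr1 at 1.52 ± 1.34, Fcgr2b at 1.08 ± 0.426 and Trem2 at 0.348 ± 0.123 CPM per kilobase. Fcgrt lay wholly above Tyrobp and Fcgr2b wholly above Trem2, and all other neighbours in this order overlapped across libraries. The length used for Trem2, 4.95 kilobases, includes a transcript of 4784 bases that keeps an intron, which lowers its level per length. The lengths used for Syk and Fcgr2b, 9.36 and 5.79 kilobases, exceed their longest transcripts, of 5363 and 3544 bases. The order of the members below Fcer1g therefore depends on the length used.

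The study's own question is the comparison of TG with WT. None of the 9 genes passed the test between the genotypes, and Trem2 alone had both WT mice above both TG mice. Trem2 had the smallest p-value of the 9, with a log2 fold change of -0.83 ± 0.38 (SE) and an unadjusted p of 0.0831 in edgeR's quasi-likelihood test, which was 1.00 after Benjamini-Hochberg adjustment over all tested genes. Mean levels were 2.21 ± 0.406 CPM (SD, n = 2) in WT mice and 1.24 ± 0.0371 CPM (SD, n = 2) in TG mice, from 17 to 41 counts a library. That makes 1 of 9 genes whose genotypes did not overlap, against 21.0% of all tested genes. Fcrls, an Fc-receptor-like gene from the wider family, also had both WT mice, at 6.99 and 7.04 CPM, above both TG mice, at 5.12 and 4.85 CPM.

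The fitted log2 fold changes of TG over WT were -0.87 ± 0.97 for Fcgr1, -0.31 ± 0.61 for Fcgr3 and -0.80 ± 1.78 for Fcgr4. That of the inhibitory Fcgr2b was 0.02 ± 0.51. The adaptors were at -0.15 ± 0.64 for Fcer1g and -0.23 ± 0.68 for Tyrobp. Syk at 0.07 ± 0.24 and Fcgrt at 0.04 ± 0.15 had the smallest errors. Apart from Trem2, every estimate was smaller than its SE.

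All 9 had an adjusted p of 1.00 in edgeR's test, 0 of 9 reached an unadjusted p below 0.05, and 0 were called by DESeq2 or limma-voom. Across all tested genes the test called 0, or 0.0%, so the members' count equals the background. Their median log2 fold change was -0.23, beside -0.01 over all tested genes. Leaving out 1 library at a time gave 0 called members each time, but it turned directions. Without WT 1, Fcgr1 was at 0.98, Fcgr3 at 0.54, Fcgr4 at 4.42, Fcer1g at 0.85 and Tyrobp at 0.89. Without TG 1, Fcgr3, Fcgr4, Fcer1g and Tyrobp were also positive, at 0.13 to 0.32. Without TG 2, Fcgr2b was at -0.59, Fcgrt at -0.059 and Syk at -0.28. Without WT 2, Fcgr2b was at -0.40 and the others ran from -1.77 for Fcgr4 to 0.025 for Syk. Trem2 was negative each time, at -1.005 to -0.63.

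A second fit set the 35-week mice, both male, against the 19-week mice, both female. None of the 9 genes passed the test. The log2 fold changes of males over females were 0.86 ± 0.98 for Fcgr1, 0.18 ± 0.63 for Fcgr3, 0.88 ± 1.79 for Fcgr4 and -0.0029 ± 0.51 for Fcgr2b. They were 0.24 ± 0.64 for Fcer1g, 0.32 ± 0.68 for Tyrobp, 0.22 ± 0.50 for Trem2, -0.07 ± 0.13 for Fcgrt and -0.27 ± 0.20 for Syk. Every adjusted p was 0.999 in edgeR's test and 0 of 9 reached an unadjusted p below 0.05. Without WT 2, Fcgr3, Fcgr4, Fcer1g and Tyrobp turned negative, at -0.095 to -0.28. Fcgr1 was then at 0.28, Fcgr2b at -0.44, Trem2 at 0.55, Fcgrt at -0.16 and Syk at -0.45. Without WT 1, Fcgr3, Fcgr4, Fcer1g, Tyrobp, Fcgr1 and Trem2 were negative, at -0.39 to -3.31. Without TG 1, Fcgr2b was at 0.41, and without TG 2 it was at 0.61, Fcgrt at 0.027 and Trem2 at -0.043. In this comparison 0.0282% of tested genes passed the threshold. The sexes overlapped for all 9 members, while they did not for 31.5% of all tested genes.

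Within pairs the genes separated, in opposite directions. The TG male was below the WT male, and the TG female above the WT female, for 8 of the 9 genes, all except Trem2. This combination held for 31.9% of all tested genes, so the opposite ratios were not limited to the members. At least 2-fold lower in the TG male were 5 members (6.07% of all tested genes) and at least 2-fold higher in the TG female were 6 (5.33%). Both held for 5 members, Fcgr1, Fcgr3, Fcgr4, Fcer1g and Tyrobp, and for 3.81% of all tested genes. These counts use log2 ratios with a prior count of 2. Fcgr4 had at least 10 counts in WT 1 and TG 2 only, so it entered the test through the libraries where it was high. Its directions within pairs are therefore no separate result. Each pair is 1 mouse against 1 mouse, and no spread among replicates remains once genotype and pair are both allowed to act and to combine, so these are values with no test.

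Among the receptors, Fcgr1 was 6.48-fold higher in the WT than in the TG male (95% exact counting interval 4.001 to 11.1) and 2.97-fold higher in the TG than in the WT female (1.804 to 5.07). Fcgr3 was 3.05-fold higher in the WT male (2.39 to 3.94) and 2.05-fold higher in the TG female (1.62 to 2.60). The widest intervals were those of Fcgr4, at 37.2-fold (9.99 to 312) in the males and 45.7-fold (7.78 to 1845) in the females, since its low libraries held 2 counts and 1 count. For the inhibitory Fcgr2b the folds were 2.02 (1.47 to 2.79) and 2.06 (1.51 to 2.83), nearly the same size in both pairs.

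The adaptors had similar folds. Tyrobp was 3.01-fold higher in the WT male (2.39 to 3.83) and 2.59-fold higher in the TG female (2.03 to 3.32). Fcer1g was 2.69-fold higher in the WT male (2.00 to 3.66) and 2.49-fold higher in the TG female (1.83 to 3.43). The kinase they recruit varied less, with Syk 1.25-fold higher in the WT male (1.12 to 1.40) and 1.31-fold higher in the TG female (1.19 to 1.45).

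Fcgrt was 1.07-fold higher in the WT male (0.982 to 1.16), an interval that includes 1, and 1.13-fold higher in the TG female (1.04 to 1.23). Trem2 was 2.06-fold higher in the WT than in the TG male (1.15 to 3.87), and its ratio of TG to WT in the females was 0.657 (0.350 to 1.21), which includes 1. With the prior count, the male log2 ratios of Trem2 and Fcgr2b were -0.97 and -0.99, just inside the 2-fold limit. With a prior count of 0.5, or with total counts in place of TMM, 7 members passed it in the males and 6 passed in both directions. Scaling by total counts moves the median log2 ratio of all tested genes to -0.17 in the males and 0.18 in the females. The direction of each of the 9 genes in each pair was the same under every scaling tried.

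**Figure D2:**
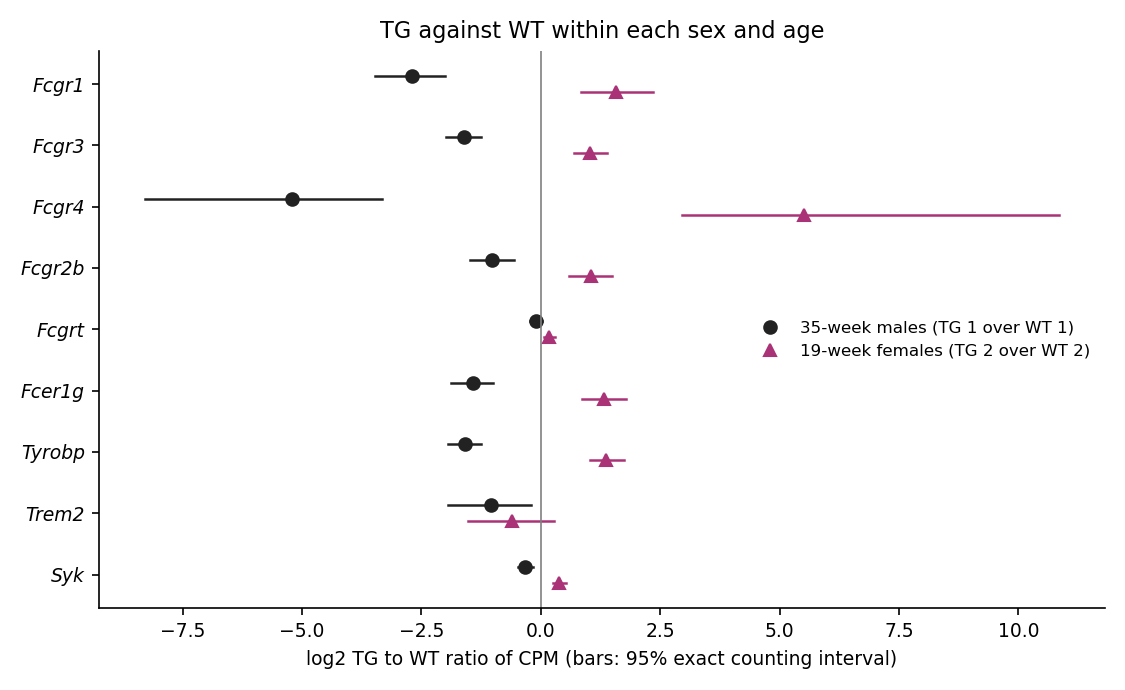
Log2 ratio of TG to WT in CPM, without a prior count, for each of the 9 genes in the 35-week males (black circles) and the 19-week females (purple triangles), with 95% exact counting intervals as bars. For 8 genes the males lie left of 0 and the females right of it, Fcgr4 has the longest bars, and both Trem2 points lie left of 0.

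**Figure D3:**
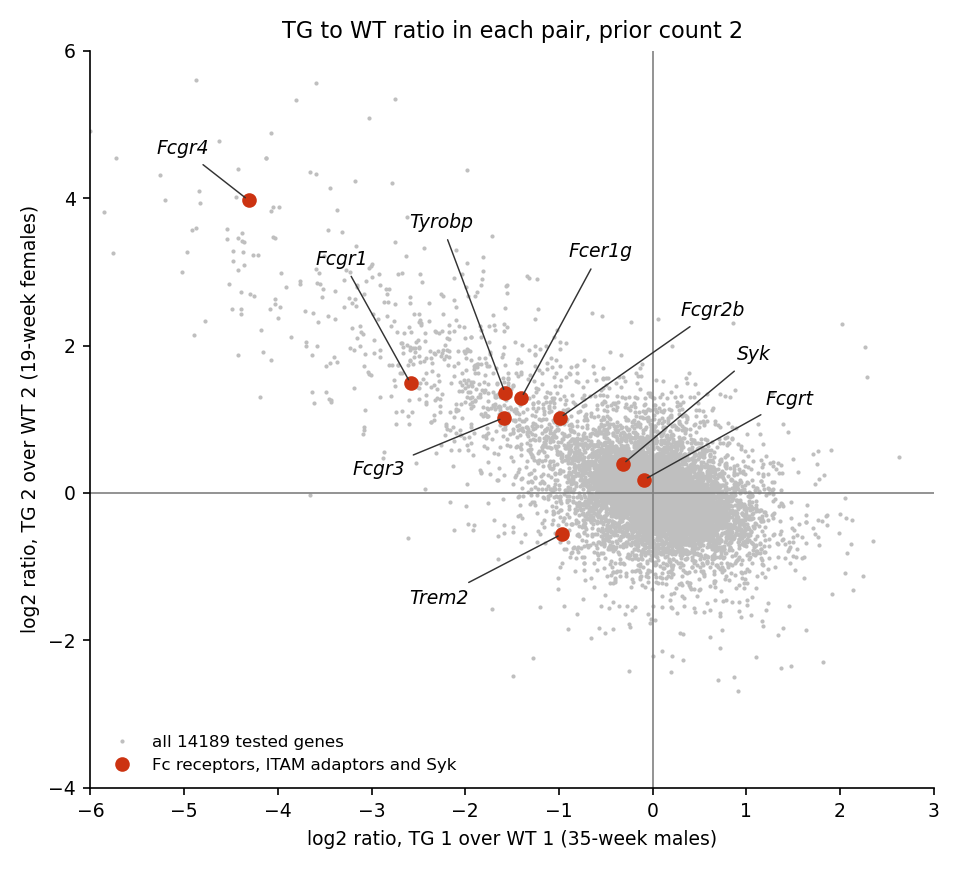
Log2 TG to WT ratio, with a prior count of 2, in the males (x axis) and in the females (y axis) for the tested genes (grey points) and the 9 genes (red points, labelled). Most members lie in the upper left, Fcgrt and Syk lie near the centre, Trem2 lies in the lower left, and 26 of the 14189 tested genes fall outside the plotted range.

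Ratios between partner genes in one library do not depend on the scaling. Fcer1g over Tyrobp, per length, was 0.431 in WT 1, 0.482 in WT 2, 0.482 in TG 1 and 0.464 in TG 2. The counting intervals of the 4 libraries, from 0.343 to 0.673 at their widest, overlapped, while Tyrobp alone ranged from 6.08 to 20.4 CPM. A difference in the proportion of the γ chain gene to the DAP12 gene was not detectable at this depth.

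The balance of activating to inhibitory receptor varied more. Fcgr1 over Fcgr2b was 2.35 (1.85 to 2.99) in WT 1 and 1.11 (0.807 to 1.51) in TG 2, but 0.769 (0.451 to 1.27) in WT 2 and 0.733 (0.412 to 1.25) in TG 1. The WT 1 interval lay above the other 3. Fcgr4 over Fcgr2b was 2.93 (2.21 to 3.86) in WT 1 and 1.60 (1.11 to 2.27) in TG 2, and 0.0720 (0.00180 to 0.416) in WT 2 and 0.159 (0.0188 to 0.601) in TG 1. The 2 high libraries thus lay above the 2 low ones with no overlap of intervals. Fcgr4 entered the test through WT 1 and TG 2, where it was high, so this separation is no separate result. Fcgr3 over Fcgr2b stayed between 4.83 and 7.30, with overlapping intervals. With the longest transcript in place of all exons, Fcgr1 over Fcgr2b was 1.44 in WT 1 and 0.679 in TG 2, and Fcgr4 over Fcgr2b was 1.79 and 0.978. The comparison between libraries does not depend on that length, since it is the same for all 4.

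FcRn requires β2-microglobulin, the product of B2m, which also pairs with class I histocompatibility proteins. B2m was at 979 CPM in WT 1, 188 in WT 2, 177 in TG 1 and 915 in TG 2. Fcgrt over B2m, per length, was 0.0320 in WT 1 and 0.0368 in TG 2, against 0.158 in WT 2 and 0.166 in TG 1. Fcgrt was steady while its partner varied, so the ratio was low where B2m was high. With B2m in the list, 3 of 11 other Fc receptor family genes were tested, all fitted lower in TG and 0 called, the others being Fcrls and Trim21. Trim21, a receptor for antibody in the cytosol, was at 21.6 CPM in WT 1, 9.72 in WT 2, 8.04 in TG 1 and 16.9 in TG 2.

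**Figure D4:**
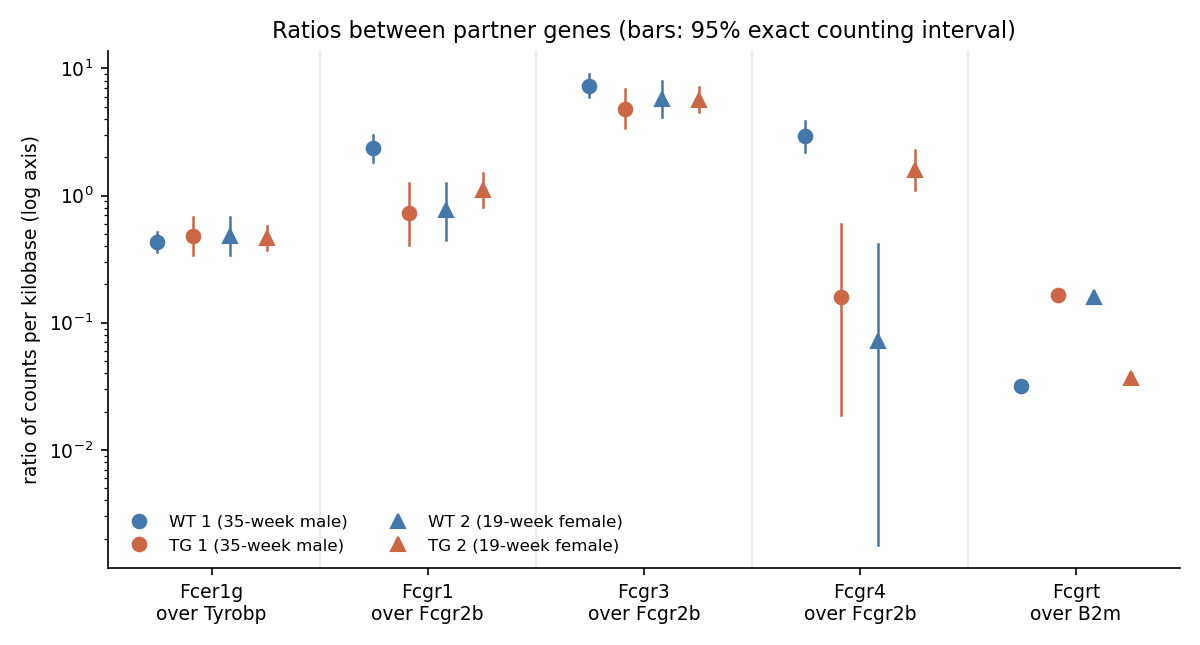
Ratio of counts per kilobase between partner genes (log axis) in the 4 libraries, with 95% exact counting intervals as bars. Fcer1g over Tyrobp is level at 0.431 to 0.482, Fcgr4 over Fcgr2b is 2.93 in WT 1, 1.60 in TG 2, 0.0720 in WT 2 and 0.159 in TG 1, and Fcgrt over B2m is lowest in WT 1 and TG 2.

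The wider pathway was described from lists, whose genes named here are those of highest level in each list or were chosen after their values were seen. Among 10 other ITAM adaptors and receptors, 6 were tested: the T cell receptor chains Cd3d, Cd3e, Cd3g and Cd247, the B cell receptor chain Cd79b and the fungal-glucan receptor Clec7a. Of these, 0 were called between genotypes, with 2 fitted higher and 4 lower in TG. Of all 14189 tested genes, 6743 were fitted higher and 7446 lower in TG. The direction counts of each list stand beside that share and were not tested. Cd3d, Cd3e, Cd3g and Cd79b had at least 10 counts in WT 1 and TG 2 only, so they entered the test through the libraries where they were high, and their directions within pairs are no separate result. Clec7a was at 9.79 CPM in WT 1, 1.66 in WT 2, 0.925 in TG 1 and 6.91 in TG 2. Fcer1a and Ms4a2, the chains that with the γ chain form the mast cell IgE receptor, had 0 counts in every library and 1 count in WT 1, in that order.

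Of 13 TREM family genes and DAP12 partners, 6 were tested and 0 called, with 1 fitted higher and 5 lower in TG. Within pairs, 4 of the 6 were at least 2-fold in opposite directions, Cd300lb, Cd300ld, Clec5a and Clec4n. Cd300ld was at 8.88 CPM in WT 1, 2.05 in WT 2, 2.13 in TG 1 and 7.64 in TG 2. Csf1r, the receptor for the macrophage growth factor CSF1, had the same order at 89.9, 41.3, 49.7 and 68.2 CPM. Plxna1, a semaphorin receptor reported to work with TREM2, ran the other way at 54.8, 74.8, 72.1 and 57.4 CPM. Trem2 was thus unlike each of the 4 lectin and CD300 partners in the direction of its female ratio, a difference that was not tested.

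The kinases and effectors downstream of ITAMs were all tested, 27 of 27. None was called between genotypes, with 10 fitted higher and 17 lower in TG and a median log2 fold change of -0.11. Within pairs, 12 were at least 2-fold lower in the TG male, 9 at least 2-fold higher in the TG female and 9 both, counts that include 3 genes with at least 10 counts in WT 1 and TG 2 only. Zap70, the T cell relative of Syk, was among them at 2.43, 0.256, 0 and 2.39 CPM in WT 1, WT 2, TG 1 and TG 2. Broadly expressed members varied less. The adaptor gene Grb2 was at 47.8, 40.2, 52.3 and 47.0 CPM, the phospholipase gene Plcg1 at 75.0, 81.8, 96.2 and 77.1, and the kinase gene Fyn at 39.5, 52.4, 45.9 and 48.3. Syk, at 39.3 to 60.4 CPM, had a narrower range than Zap70, but like Fcgr3 and the adaptors it was lower in the TG male and higher in the TG female.

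On the inhibitory side, 18 of 20 ITIM receptors and phosphatases were tested and 0 called, with 4 fitted higher and 14 lower in TG. Over all tested genes, 7446 of 14189 were fitted lower, and the difference from that share was not tested. At least 2-fold lower in the TG male were 11, at least 2-fold higher in the TG female 8, and 8 both, again with 2 genes that had at least 10 counts in WT 1 and TG 2 only. Sirpa, an inhibitory receptor for CD47, was at 108 CPM in WT 1, 52.1 in WT 2, 61.2 in TG 1 and 76.0 in TG 2. Inppl1, the SHIP-2 gene, was at 229, 217, 256 and 245 CPM. The phosphatase genes differed. Ptpn6, the leukocyte SHP-1 gene, was at 16.6, 6.01, 3.201 and 12.7 CPM, whereas Ptpn11, the widely expressed SHP-2 gene, was at 407, 443, 475 and 437 CPM. Inpp5d, the SHIP-1 gene through which Fcgr2b acts, was between them in spread at 23.3, 16.5, 14.4 and 21.0 CPM.

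Beside these values stand the markers of cells that could carry the receptors. The 17 macrophage markers, all tested and none at 0, summed to 1167 CPM in WT 1, 413 in WT 2, 422 in TG 1 and 909.5 in TG 2. Of these, 10 were at least 2-fold in opposite directions in the pairs, and their median log2 ratios were -1.52 in the males and 1.34 in the females, beside -1.40 and 1.02 for the 9 genes described here. Lyz2, a lysozyme gene, was at 293, 104, 102 and 235 CPM, C1qa of complement at 132, 36.4, 33.6 and 94.6, and Mrc1, the mannose receptor gene, at 125, 68.1, 75.5 and 100.5 CPM. Cd163, a scavenger receptor of resident macrophages, was lower in TG in both pairs, like Trem2, at 22.7, 22.6, 16.004 and 5.98 CPM. The part of macrophage content in the receptor values was not tested.

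Other leukocyte markers were high in the same libraries. T cell markers summed to 55.4, 19.0, 19.6 and 51.7 CPM in WT 1, WT 2, TG 1 and TG 2. Of this, Cd28 made up 19.6, 16.5, 17.6 and 17.3 CPM, which was most of the sum in WT 2 and TG 1. Of the 9 T cell markers, 7 had at least 10 counts in WT 1 and TG 2 only. The same held for all 4 NK cell markers that were tested. NK cell markers, whose cells are known to carry the Fcgr3 receptor, summed to 14.9, 1.86, 0.427 and 11.4 CPM. Among the 10 NK markers, 5 were at 0 in TG 1, 1 in WT 2 and none in WT 1 or TG 2. B cell markers, whose cells are known to carry the Fcgr2b receptor, summed to 4.07, 1.34, 1.71 and 5.38 CPM, and neutrophil markers to 4.99, 1.34, 1.21 and 4.25. Their part in the receptor values was not tested either.

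Mast cell markers summed to 13.9, 12.4, 12.6 and 14.5 CPM, of which Kit, a gene that other cells also use, made up 9.06, 6.27, 8.75 and 7.504. The mast cell protease gene Cpa3 was at 1.09, 0.960, 0.569 and 1.93 CPM, from 8 to 29 counts. Dendritic cell markers summed to 44.8, 40.0, 31.9 and 42.0 CPM, most of it Zbtb46 at 24.3, 38.3, 30.02 and 28.4, while Itgax was at 8.33, 0.128, 0.569 and 5.05. Of the 6 dendritic cell markers tested, all but Zbtb46 were at least 2-fold in opposite directions within pairs. Of these 5, 4 had at least 10 counts in WT 1 and TG 2 only. Endothelial markers summed to 1354, 1661, 1509 and 1505 CPM and fibroblast markers to 1654, 1744, 1665 and 1691, with no marker at least 2-fold lower in the TG male or higher in the TG female. Fcgrt was about as level as these sums. Some single markers varied more, among them Vwf at 51.7, 83.7, 92.2 and 56.2 CPM. Col1a1 was at 57.6, 74.8, 114 and 81.0 CPM and Col3a1 at 327, 663, 338 and 433. The 10 cardiomyocyte markers were level by their medians, with log2 ratios of 0.04 in the males and -0.05 in the females. Their sum was lower in WT 1 and TG 2, at 135295 and 138317 CPM, than in WT 2 and TG 1, at 178400 and 208915 CPM. That came from Ttn, Myh6 and Ryr2, with Ttn at 61652 CPM in WT 1, 96929 in WT 2, 118161 in TG 1 and 63260 in TG 2, while Myl2 was at 7738, 7948, 7672 and 7835.

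**Figure D5:**
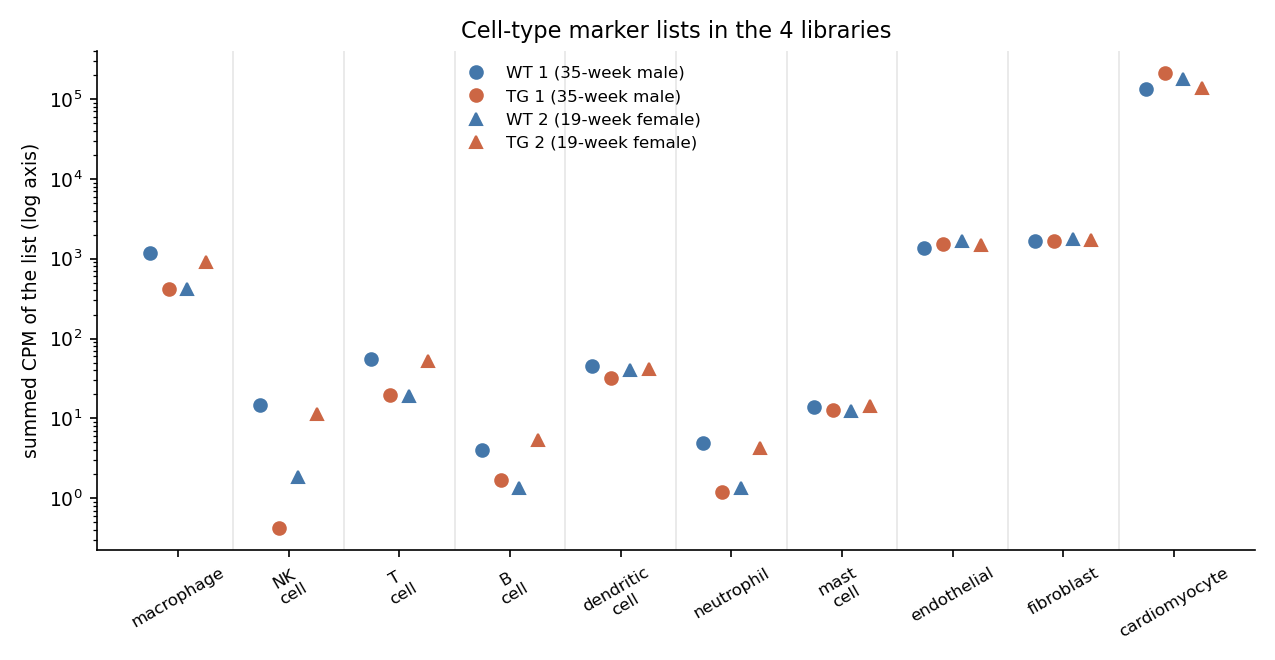
Summed level of each cell-type marker list (CPM, log axis) in the 4 libraries, with circles for males, triangles for females, blue for WT and orange for TG. Macrophage, NK, T, B and neutrophil lists are higher in WT 1 and TG 2, as Fcgr1, Fcgr2b, Fcgr3 and Fcgr4 are, while endothelial and fibroblast lists are level.

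The members were also set against Csf1r, one macrophage gene. Per length, Fcer1g over Csf1r was 0.845 in WT 1 and 0.926 in TG 2 against 0.614 in WT 2 and 0.567 in TG 1. Tyrobp over Csf1r was 1.96 and 2.00 against 1.27 and 1.18. Fcgr2b over Csf1r was 0.0924 in WT 1, 0.0988 in WT 2, 0.0827 in TG 1 and 0.123 in TG 2. Fcgr3 over Csf1r was 0.675, 0.566, 0.400 and 0.703 and Fcgr1 over Csf1r 0.217, 0.0760, 0.0606 and 0.137 in the same order. Fcgr2b thus followed Csf1r most closely of the 4 IgG receptor genes in these libraries. Fcgr4 over Csf1r was 0.271 and 0.197 in WT 1 and TG 2 and 0.00712 and 0.0132 in WT 2 and TG 1. Syk over Csf1r was 0.337 in WT 1, 0.687 in WT 2, 0.487 in TG 1 and 0.546 in TG 2. That made it higher in the TG than in the WT male and lower in the TG than in the WT female. Trem2 over Csf1r was 0.0324, 0.0542, 0.0284 and 0.0216. For Syk and Trem2 the spread over libraries was wider relative to Csf1r than in CPM.

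The genes whose profiles over the 4 libraries were most like those of the adaptors and of Fcgrt were found by the root mean square difference of centred log2 CPM. For Tyrobp the nearest was Cxcl16, a chemokine gene, at a difference of 0.0299, followed by Sh2d1a, Fpr2, Hrh2 and Gatm. Fcer1g ranked 14th for Tyrobp and Fcgr3 74th. For Fcer1g the nearest were Snx10 at 0.0407, Ptafr, Pik3cg, Fpr2 and Hist1h2bm, with Tyrobp 13th. For Fcgrt they were Loxl1 at 0.00536, Cab39, Ubac2, Zfp429 and Rpl9-ps7. With 4 libraries, and with Sh2d1a and Fpr2 at about 1 count in their low libraries, these likenesses describe the libraries only.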

How the data were processed

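Total RNA libraries (TruSeq Stranded) from 4 mice were sequenced on a HiSeq2000, per the labels' protocols. The authors deposited raw read counts per Ensembl gene. Per the submitters' processing notes, build mm10 was used with STAR 2.3.0 and HTSeq 0.6.1, and CASAVA 1.8.2, FastQC 0.10.0 and DESeq are also named. The sources used here do not give the annotation or the strand setting. A second deposited table, of normalized values, was not used.

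The test was that of edgeR 4.0.16 in R 4.3.3 (filterByExpr with a minimum count of 10, TMM scaling, quasi-likelihood, Benjamini-Hochberg threshold 0.05), after tests on simulated data. All 4 libraries entered each fit, without a block. DESeq2 1.42.0, limma-voom (limma 3.58.1), RLE size factors, no filter, a block and leaving out each library were alternatives. Log2 ratios between the mice of a pair have a prior count of 2, and profile comparisons a pseudocount of 0.5. Intervals are exact binomial at 95%. Exonic lengths and coding sequences came from GENCODE vM21 and promoters from RefSeq.

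All 9 members are named. From each pathway list the called genes, or else the 3 of highest mean CPM, were named, and any others, marker genes included, were chosen after their values were seen. For Tyrobp, Fcer1g and Fcgrt, the 5 nearest profiles are named. The members and lists were chosen with earlier results of these data known. Each genotype had 2 mice, so the p-values speak of the spread between these animals only. Those 2 mice differed in sex and age, so without a block the SDs and SEs within a genotype include sex and age. In the fit of males against females, the spread within a sex likewise includes genotype.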

Additional observations from a re-analysis of the deposited data

Results flagged for a closer look

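The TG to WT ratio lay below 1 in the 35-week males and above 1 in the 19-week females, each with a counting interval clear of 1, for 7 of the 9 genes. Direction alone, whatever the interval, held for 8 of the 9 and for 31.9% of all tested genes. The share of all tested genes with both intervals clear of 1 was not computed. These intervals cover counting error only, not the spread between mice. The difference of the log2 ratios, male pair minus female pair, was -8.28 for Fcgr4, -4.07 for Fcgr1, -2.93 for Tyrobp, -2.69 for Fcer1g, -2.61 for Fcgr3, -2.01 for Fcgr2b and -0.71 for Syk. Fcgr4 entered the test only through WT 1 and TG 2, where it was high, so its ratios and their difference are no separate result. The difference between the pairs was not tested, since 1 mouse per genotype, sex and age leaves no replicate. Macrophage markers moved with the same libraries, and their part was not tested.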

How the results depend on the processing

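For TG against WT, edgeR called 0 genes, with 99 at an unadjusted p below 0.05. DESeq2 called 3, limma-voom 0, and leaving out 1 library gave 0 to 8, the 8 without WT 1. For males against females edgeR called 4, DESeq2 33, the fit without a count filter 7 and the fit with genotype as covariate 0. Leaving out 1 library gave 0 to 9 there, with 0 without WT 1, WT 2 or TG 1 and 9 without TG 2. None of the 9 members was called under any of these settings. With the replicate block (sex and age as a term) 0 genes were called for TG against WT, with 61 at an unadjusted p below 0.05. With this block the log2 fold change was -0.57 for Fcgr1 and -0.22 for Fcgr4, against -0.87 and -0.80 without it. Every member kept its direction. The replicate numbers mark sex and age only, and same-numbered libraries deviated in opposite directions, with r = -0.457 over 14189 genes between the replicate 1 minus replicate 2 differences of WT and of TG (log2 CPM, across genes, which are not independent). WT 1 was thus closer to TG 2, and WT 2 to TG 1, in the direction of these differences.

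Estimates turned sign for Fcgr4 with limma-voom (TG over WT 0.018) and for Fcgr2b, males over females, with limma-voom (0.031), no filter (0.0073) and genotype as covariate (0.00019). Leaving out 1 library moved TG over WT (log2) from -1.91 to 0.98 for Fcgr1, -0.59 to 0.62 for Fcgr2b, -1.08 to 0.54 for Fcgr3, -4.16 to 4.42 for Fcgr4, -0.84 to 0.85 for Fcer1g, -0.059 to 0.14 for Fcgrt, -0.97 to 0.89 for Tyrobp and -0.28 to 0.35 for Syk, while Trem2 stayed between -1.005 and -0.63. Males over females ran from -1.04 to 1.85 for Fcgr1, -0.60 to 0.61 for Fcgr2b, -0.84 to 0.79 for Fcgr3, -3.31 to 5.25 for Fcgr4, -0.65 to 1.04 for Fcer1g, -0.16 to 0.027 for Fcgrt, -0.69 to 1.16 for Tyrobp and -0.39 to 0.64 for Trem2. With 1 library left in a group, its spread is assumed to equal that of the other group. The cause of these changes was not tested. Depth limits Fcgr4 most, with 1 and 2 counts in its low libraries.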
